A study of Mus musculus with 26 samples.

Results

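Genes of glycolysis and of the response to low oxygen were followed through sorted mesenchyme of the developing mouse reproductive tract. The set holds 34 genes, listed by symbol, and was read as the rows of each RNA count table that carry a listed name. All 34 were found among the 41442 rows of each table, and all 34 passed the filter on low counts. By role they are 4 transporters of glucose and lactate, 9 enzymes of upper and 6 of lower glycolysis, both lactate dehydrogenase subunits, 4 regulatory kinases, a hypoxia-inducible factor with 2 of its hydroxylases, and 6 other genes known to rise in hypoxia. They lie on 14 chromosomes of mm10.

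The fetal cells were Gli1+ cells sorted from the mesonephros, the tissue around the ducts that form the male and female tracts, of embryos with Gli1-CreER and Rosa-Tomato. There were 4 such groups of 3 RNA libraries, females and males at E14.5 and at E16.5. The uterine cells came from neonatal females labelled E19.5, 3 libraries of Gli1+ cells and 3 of Amhr2+ cells from the line with Amhr2-Cre and Rosa-Tomato. According to the labels, dams of both lines received 1 mg tamoxifen on E12.5 and on E13.5, so every group shares the reporter, the drug, the TrypLE digestion and the sort. Gli1-CreER marks cells that held Gli1 while tamoxifen was active, together with their descendants, and Amhr2-Cre marks any cell that has expressed Amhr2, so a labelled cell need not hold the marker when collected. The 2 tables were made with different library kits and were analysed apart. The labels do not say which animals or litters a library came from, so p-values measure the spread between these libraries.

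Total counts ran from 23382983 to 64602477 in the fetal libraries and from 28709191 to 37541045 in the uterine ones, and the smallest of these gives 3 counts a value of 0.126 CPM (counts scaled by library size). Summed mesenchyme markers stood between 20741 and 43783 CPM in the 18 libraries. The summed markers of endothelium reached at most 123 CPM, of gonad somatic cells 120.4, of erythroid cells 104 and of immune cells 83.4. Those of epithelium reached 49.8, of neural cells 12.7 and of germ cells 6.53. In the fetal libraries the gonad somatic markers ran from 44.3 to 70.7 CPM, highest in E16.5 males. Gli1, the marker of the sort, was at 184, 184 and 184 CPM in E14.5 females, 213, 246 and 224 in E14.5 males, 54, 49.7 and 48.5 in females of E16.5 and 194, 211 and 220.2 in males of E16.5. In the uterus Gli1 was at 11.8, 12.3 and 7.53 CPM in Amhr2+ and 16.2, 21.2 and 16.3 in Gli1+ cells, and Amhr2 at 10.3, 7.25 and 15.8 in Amhr2+ and 3.72, 5.23 and 3.35 in Gli1+ cells, each higher in the cells named for it. In sorted bulk samples, fewer cells of a type and less RNA per cell cannot be told apart.

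Glycolysis splits glucose to pyruvate in the cytosol, and lactate dehydrogenase turns pyruvate to lactate, which monocarboxylate transporters move across the membrane. When oxygen is plentiful, the prolyl hydroxylases EGLN1 and EGLN3 mark hypoxia-inducible factor (HIF) alpha subunits for destruction. When oxygen is low, HIF binds short hypoxia response elements whose core reads ACGTG or GCGTG, and raises genes of glucose uptake, glycolysis, pyruvate dehydrogenase kinase, mitophagy, pH control and collagen hydroxylation. Egln3 is itself a HIF target, and collagen prolyl hydroxylases of the P4HA family serve matrix deposition, a main task of fetal mesenchyme.

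The core letters stand in the promoters of most members. Promoter windows of 250 bases before the gene start were available from RefSeq (GRCm38.p6) for 32 members, and Slc2a3 and Ndrg1 had none. On either strand, ACGTG occurred in 20 of the 32 (62.5%), against 18.5% of 27025 genes with a window and 24.4% of the 10996 of these that were tested in the fetal table. GCGTG occurred in 21 (65.6%), against 30.9% and 48.8%, and one or the other in 29 (90.6%), against 41.5% and 59.8%. Members had 45 windows in all and the 10996 tested genes 14060, since some genes have several starts, and a gene counts once if any window holds the letters. The shares were not matched for base composition. The palindrome CACGTG holds ACGTG on both strands. Eno2, Tpi1 and Gpi1 held neither, and of these Eno2 and Tpi1 also rose with age in both sexes. A match is a stretch of letters and not a measured binding site. The promoters of 4 members that rose with age in both sexes, chosen among those that hold the letters, are printed below. They run 5′ to 3′ along the gene's strand, with the searched letters of either strand in capitals. They are the windows of Egln3 (chr12:54203875-54204124, minus strand), Bnip3 (chr7:138909507-138909756, minus), P4ha1 (chr10:59323046-59323295, plus) and P4ha2 (chr11:54100674-54100923, plus).
Egln3: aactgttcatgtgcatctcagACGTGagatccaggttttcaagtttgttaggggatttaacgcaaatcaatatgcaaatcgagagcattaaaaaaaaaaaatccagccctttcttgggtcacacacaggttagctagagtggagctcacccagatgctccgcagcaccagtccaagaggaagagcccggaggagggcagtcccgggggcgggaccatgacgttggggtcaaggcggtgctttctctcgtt
Bnip3: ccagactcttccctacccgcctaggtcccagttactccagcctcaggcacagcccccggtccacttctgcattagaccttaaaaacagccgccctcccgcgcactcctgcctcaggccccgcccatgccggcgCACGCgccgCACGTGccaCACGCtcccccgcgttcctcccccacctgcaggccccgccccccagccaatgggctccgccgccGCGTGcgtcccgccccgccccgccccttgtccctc
P4ha1: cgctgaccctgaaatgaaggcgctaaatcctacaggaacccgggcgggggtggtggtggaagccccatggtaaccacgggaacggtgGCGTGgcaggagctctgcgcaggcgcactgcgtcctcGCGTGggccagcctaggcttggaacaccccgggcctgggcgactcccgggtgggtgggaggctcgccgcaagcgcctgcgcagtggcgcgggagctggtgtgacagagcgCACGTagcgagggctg
P4ha2: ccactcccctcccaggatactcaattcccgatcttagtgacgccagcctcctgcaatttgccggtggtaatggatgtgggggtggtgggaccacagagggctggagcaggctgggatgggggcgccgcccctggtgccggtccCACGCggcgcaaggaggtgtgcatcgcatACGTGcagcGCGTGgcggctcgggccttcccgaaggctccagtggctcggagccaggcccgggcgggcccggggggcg

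The Egln3 window held 1 ACGTG and no GCGTG. The Bnip3 window held 2 ACGTG, which are both strands of 1 palindrome, and 3 GCGTG. Those of P4ha1 and P4ha2 each held 1 ACGTG and 2 GCGTG. The ATAC-seq data, which map accessible chromatin in the same fetal cells, give 1 list of 71040 peaks for all samples, with a median width of 233 bp and no height. A peak lay over the start of 30 of the 32 members with a window (93.8%), those 4 included, against 41.1% of all genes with a window and 80.7% of those tested in the fetal table. The ACGTG of Egln3 stood 229 bases before the start, outside the peak there, which ends at chr12:54203993. The nearest peak lay 3 bp from the start in Eno2 and 1066 bp in Car9. The list cannot say in which sex or at which age a start was open.

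Tpi1, Ldha and Pkm were the 3 most abundant members per exon length in every fetal group. Scaled by exon length (RPKM, CPM per kilobase of exon), E14.5 females held Tpi1, the triosephosphate isomerase, at 71.2 ± 3.57 and the lactate dehydrogenase subunit Ldha at 70.7 ± 2.15 (SD, n = 3), which do not differ beyond their spread. Pyruvate kinase Pkm stood at 63.1 ± 1.91, the lactate dehydrogenase subunit Ldhb at 44.8 ± 2.68, Gapdh at 44.5 ± 1.44 and Aldoa at 32.6 ± 1.97 RPKM. Per exon length, Ldhb and Gapdh are again within their spread. Places in this order depend on the union exon lengths used, such as 4133 bp for Gapdh, 1570 bp for Ldhb and 13401 bp for Pfkp. In E16.5 females Aldoa, at 60.4 ± 1.93 RPKM, stood above Ldhb at 45.6 ± 1.59. At the other end of the order was Pfkp, the platelet type phosphofructokinase, at 0.354 ± 0.0375 RPKM in E14.5 and 0.352 ± 0.0287 in E16.5 females. Egln3, the aldolase Aldoc and Ankrd37, an ankyrin repeat gene induced by HIF, had means at or under that of Ankrd37 in E16.5 males, 1.71 ± 0.108 RPKM, in every fetal group. In the separately scaled uterine table Tpi1, Ldha, Aldoa and Pkm led in both populations, and Car9 was last, at 0.364 ± 0.0569 RPKM in Amhr2+ and 0.648 ± 0.279 in Gli1+ cells.

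**Figure D1:**
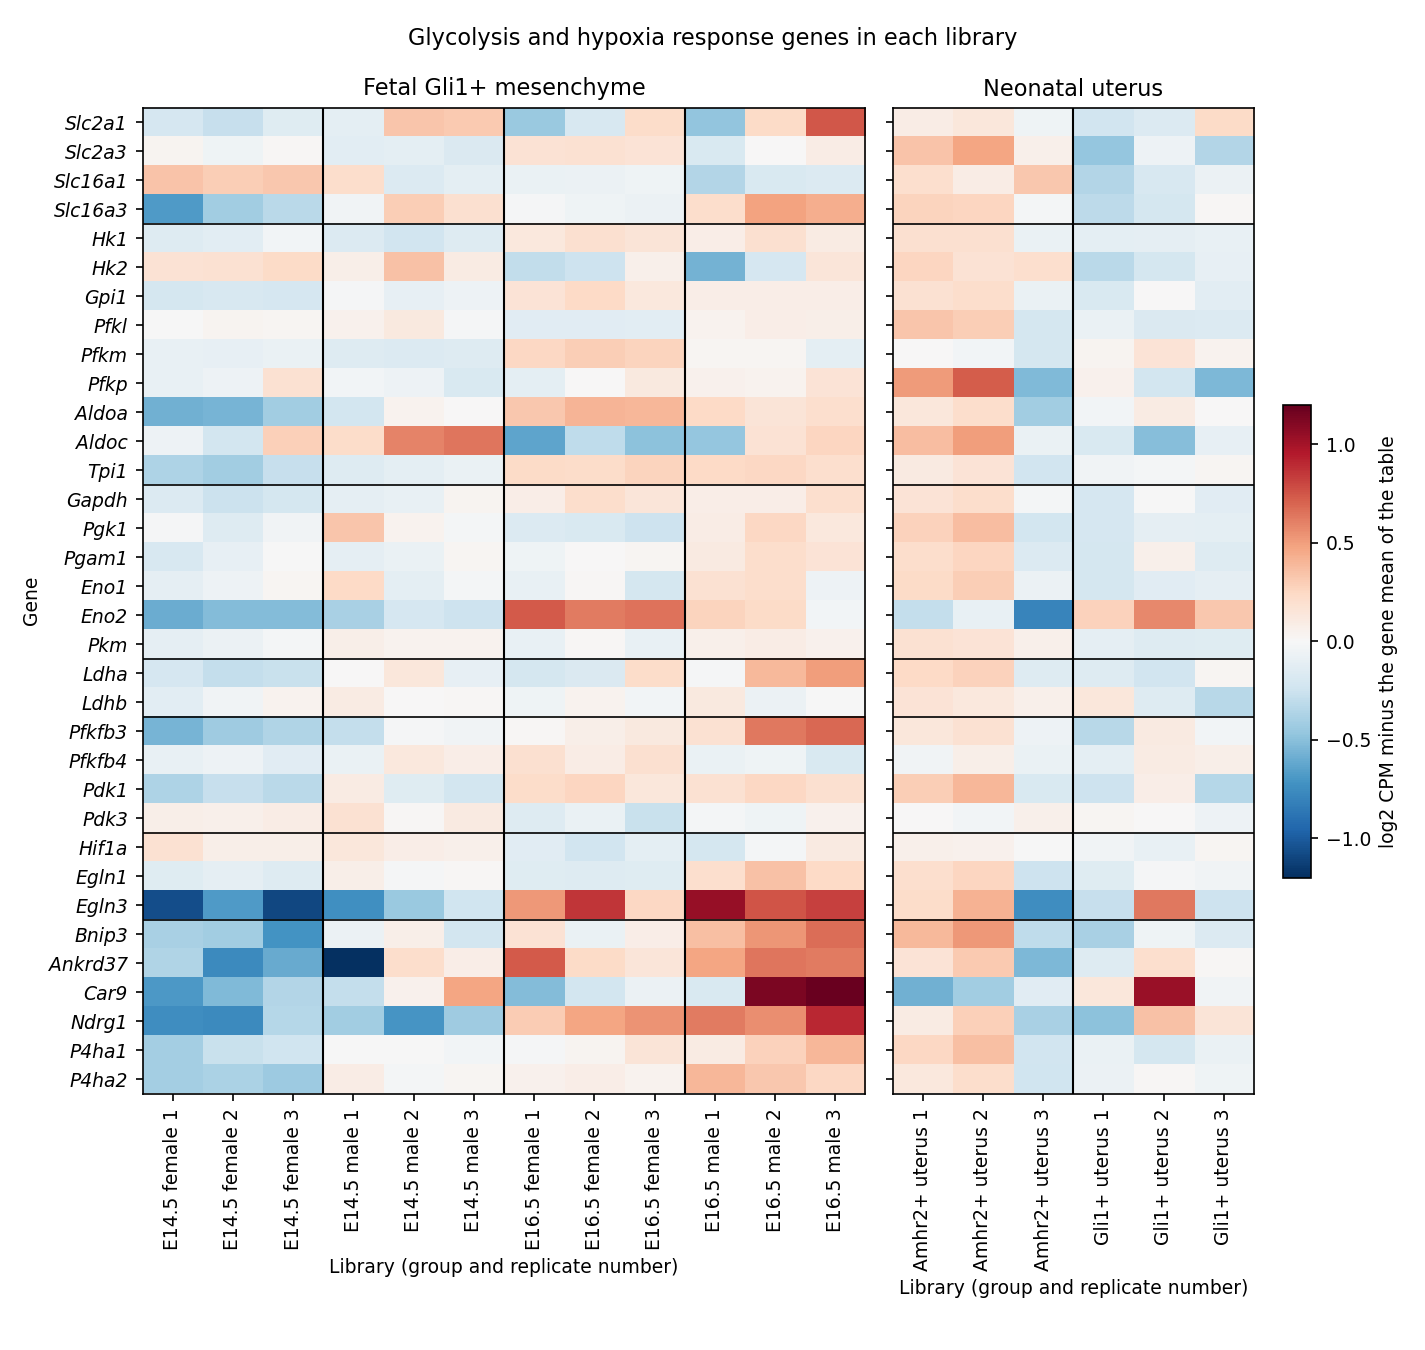
Level of each of the 34 members (rows, by role) in each of the 18 libraries (columns, by group), as log2 CPM minus the gene's mean over its own table, fetal on the left and uterine on the right. Egln3, Ndrg1, Eno2 and Aldoa change colour between E14.5 and E16.5, and Amhr2+ replicate 3 stands below the other Amhr2+ libraries in most rows.

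The first question was how the members changed from E14.5 to E16.5 in each sex. Egln3 rose 2.83-fold in females and 2.47-fold in males, Ndrg1, a stress-responsive gene of differentiation, 2.07-fold and 2.34-fold, and the enolase Eno2 2.32-fold and 1.35-fold. In females 17 of 34 members rose and 4 fell in edgeR's quasi-likelihood fit, called where the adjusted p was under 0.05. Of all 17858 genes tested, 39.6% were called, 21.0% higher and 18.6% lower. In males 13 members rose and 0 fell, where 23.3% of all genes were called, 13.1% higher and 10.2% lower. At an unadjusted p under 0.05, 20 rose and 3 fell in males, against 18.4% and 16.8% of all genes. DESeq2 called 16 higher and 0 lower in males, where it called 24.3% of all genes. With library size as the only scaling, males had 11 higher and 3 lower, where 25.1% of all genes were called. The 3 were the lactate transporter Slc16a1 (-0.27 log2), Hk2 (-0.42) and Hif1a (-0.18). The median log2 difference of the members was 0.25 in females and 0.20 in males, against 0.00 and -0.01 over all genes, and 24 and 27 members lay above 0. In both sexes 11 members rose, out of the 17 and the 13. Of all genes, 1558 rose in both, 41.6% of those that rose in females and 66.6% of those in males. The replicates do not overlap between ages for 18 rising and 7 falling members in females, against 29.2% and 27.4% of all genes. In males they do not overlap for 18 rising and 0 falling members, against 18.3% of all genes rising and 2955 of 17858 falling.

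The largest rise in each sex was that of the oxygen sensor Egln3. Egln3 (chr12:54178981-54203860) was at 1.04, 1.35 and 1.01 CPM in the 3 E14.5 female and 3.11, 3.92 and 2.58 in the 3 E16.5 female libraries, and in males at 1.3, 1.6 and 1.84 at E14.5 and then 4.48, 3.66 and 3.81. Every E16.5 library stood above every E14.5 library of its sex, in females (log2 difference 1.501, SE 0.21, adjusted p = 5.01e-05) and in males (log2 difference 1.31, SE 0.19, adjusted p = 1.16e-04). Egln1, the hydroxylase that sets HIF levels in most cells, stood at 69.1 ± 1.15 and 68.8 ± 0.266 CPM in females (SD, n = 3, adjusted p = 0.941) and rose in males from 77.3 ± 2.21 to 91.4 ± 5.13 CPM (0.24 log2, adjusted p = 0.00612). The male call was lost with only the male libraries fitted (adjusted p = 0.0519, and 0.13 with the replicate number as a block). Hif1a, the alpha subunit itself, fell in females from 174 ± 7.63 to 145 ± 5.92 CPM (-0.27 log2, adjusted p = 0.00903). That call was lost without E14.5 female replicate 1 (adjusted p = 0.0505), and in males the difference was -0.12 log2 (adjusted p = 0.244). HIF is controlled mostly through protein stability, which RNA counts do not measure.

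Of the 6 other hypoxia genes, 5 rose in females and 4 in males. Ndrg1 (chr15:66929318-66969640) went from 7.48, 7.41 and 9.88 to 15.6, 17.5 and 18.3 CPM in females and from 9.38, 7.67 and 9.33 to 19.4, 18.5 and 23.6 in males, without overlap in either sex (log2 difference 1.05, SE 0.13, adjusted p = 1.84e-05 and log2 difference 1.23, SE 0.13, adjusted p = 4.20e-06). Bnip3 (chr7:138890836-138909506), a mitophagy receptor of the outer mitochondrial membrane, went from 5.98, 5.85 and 4.78 to 8.82, 7.41 and 8.31 CPM in females and from 7.45, 8.24 and 6.75 to 10.1, 11.3 and 12.51 in males (0.56 and 0.60 log2, adjusted p = 0.00312 and 0.00207). Bnip3 and Egln3 thus rose from low levels. The collagen prolyl 4-hydroxylase subunits P4ha1 (chr10:59323296-59373304) and P4ha2 (chr11:54100924-54131662) rose by smaller steps from higher levels. P4ha2 stood at 35.3, 36 and 34.7 then 48.5, 49.5 and 48.2 CPM in females and 49.8, 46.2 and 47.5 then 61.6, 58.7 and 55.7 in males (log2 difference 0.47, SE 0.062, adjusted p = 3.13e-05 and log2 difference 0.30, SE 0.061, adjusted p = 0.00227). P4ha1 stood at 107, 119 and 121 then 142, 146 and 159 CPM in females and 142, 142 and 139 then 153, 173 and 188 in males (0.36 and 0.28 log2, adjusted p = 0.0014 and 0.0132). Neither gene's replicates overlap between ages. Ankrd37 rose in females, from 1.37, 1.04 and 1.16 to 2.94, 2.07 and 1.95 CPM (0.96 log2, adjusted p = 0.019), a call lost without any of E14.5 female replicates 2 and 3 and E16.5 female replicate 1 (adjusted p up to 0.0878). Carbonic anhydrase Car9, which handles acid outside the cell, did not pass in either sex (0.26 and 0.70 log2, adjusted p = 0.578 and 0.129). In males its rise passed without E16.5 male replicate 1 (1.02 log2, adjusted p = 5.69e-04). With only the male libraries fitted and the replicate number as a block it passed too (0.66 log2, adjusted p = 0.0270).

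In upper glycolysis 5 of 9 enzymes rose and 1 fell in females, and 3 rose in males. Aldoa, the main aldolase (chr7:126795234-126800447, overlapping Fam57b), stood at 116, 118 and 129 CPM in E14.5 and 216, 229 and 228 in E16.5 females, and in males at 148, 178 and 174 and then 204, 192 and 199. The ages do not overlap in either sex (log2 difference 0.89, SE 0.072, adjusted p = 1.61e-07 in females and log2 difference 0.25, SE 0.071, adjusted p = 0.018 in males), and the male call was lost without E14.5 male replicate 1 (adjusted p = 0.067). That call was also lost with library size as the only scaling (0.0706) and with only the male libraries fitted (0.0708, and 0.133 with the replicate number as a block). Tpi1, the next enzyme, rose from 196 ± 9.82 to 295 ± 5.2 CPM in females and from 231 ± 6.36 to 294 ± 4.73 in males (0.59 and 0.35 log2, adjusted p = 7.98e-07 and 2.49e-04). Hexokinase Hk1, which takes the first step, rose by 0.26 and 0.31 log2 (adjusted p = 0.00306 and 0.00138). Its relative Hk2 differed by -0.35 and -0.36 log2 (adjusted p = 0.0834 and 0.102). The female fall of Hk2 passed in DESeq2 (adjusted p = 0.0463) and with library size as the only scaling (0.0341). It also passed with only the female libraries fitted (0.00615, and 0.00312 with the block) and without E16.5 female replicate 3 (0.0358). The male fall passed with library size alone (0.0327) and without E16.5 male replicate 3 (0.00523). Neither passed in the other alternatives run. Glucose phosphate isomerase Gpi1 and the muscle type phosphofructokinase Pfkm rose in females, by 0.38 and 0.36 log2 (adjusted p = 4.75e-05 and 1.25e-04). The liver type Pfkl fell in females by 0.15 on the log2 scale (adjusted p = 0.0399), and that call was lost without any 1 of the 6 female libraries (adjusted p up to 0.12). Without a low-count filter it was lost too (adjusted p = 0.227). Pfkp and Aldoc passed in neither sex.

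In lower glycolysis 2 of 6 enzymes rose in each sex. Eno2 (chr6:124760055-124769673), the neuron type enolase, was the one with the largest rise in females, at 26.1, 27.4 and 27.6 CPM at E14.5 and 65.8, 60.8 and 62 at E16.5 (log2 difference 1.22, SE 0.084, adjusted p = 2.78e-08). In males it went from 30.1, 34.4 and 33.2 to 47.5, 46.2 and 38.5 CPM (log2 difference 0.43, SE 0.082, adjusted p = 0.00111). Eno1, the general enolase, stood at 111 ± 5.35 and 107 ± 8.2 CPM in females (-0.05 log2, adjusted p = 0.725) and 118 ± 15.6 and 124 ± 12.3 in males (0.08 log2, adjusted p = 0.614). Gapdh rose in females by 0.35 log2 (adjusted p = 3.60e-04) and Pgam1, phosphoglycerate mutase, in males by 0.21 (adjusted p = 0.0379, lost without any of 4 libraries, up to 0.109). Phosphoglycerate kinase Pgk1, Pkm, Ldha and Ldhb passed in neither sex, with differences from -0.13 to 0.29 log2.

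Among the kinases that steer the pathway, Pfkfb3, which makes the phosphofructokinase activator fructose 2,6-bisphosphate, rose in both sexes (0.52 and 0.62 log2, adjusted p = 0.00265 and 8.40e-04). Pyruvate dehydrogenase kinase Pdk1, which holds pyruvate back from the mitochondrion, rose from 42.8, 45.5 and 44 to 64.2, 65.9 and 60.6 CPM in females and from 59, 49.99 and 47.4 to 62.5, 65.6 and 62.8 in males (0.53 and 0.29 log2, adjusted p = 7.34e-05 and 0.0116). The ages do not overlap, and the male call was lost without E14.5 male replicate 3 (adjusted p = 0.0673). With only the male libraries fitted Pdk1 did not pass either (adjusted p = 0.0594, and 0.0839 with the replicate number as a block). Its relative Pdk3 fell in females by 0.24 on the log2 scale (adjusted p = 0.0145), a call lost without replicate 3 of either female group. Pfkfb4, a second gene of the Pfkfb3 kind, rose in females (0.25 log2, adjusted p = 0.019), lost without replicate 1 or 3 of either female group (adjusted p up to 0.0715). Of the transporters, the lactate exporter Slc16a3 rose in females (0.42 log2, adjusted p = 0.00463) while Slc16a1, the more widely expressed lactate transporter, fell (-0.39 log2, adjusted p = 0.00308). The glucose transporters Slc2a1 and Slc2a3 did not pass in either sex (0.09 and 0.17 log2 in females, 0.06 and 0.11 in males).

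**Figure D2:**
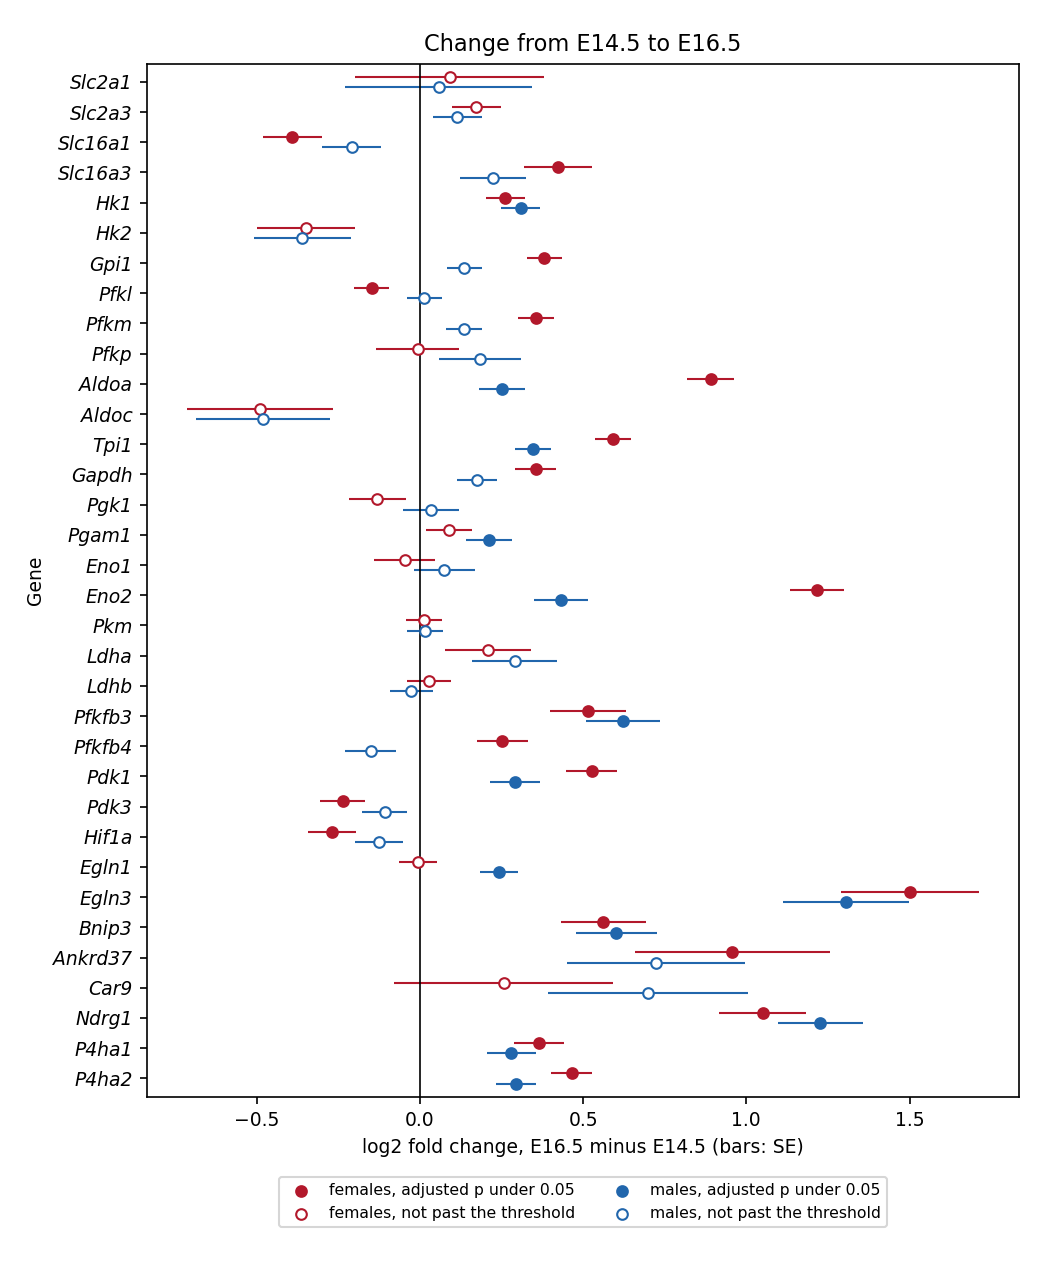
log2 difference from E14.5 to E16.5 for each member, females in red and males in blue, bars showing the SE and filled points an adjusted p under 0.05. Egln3 and Ndrg1 lie above 1 in both sexes, and Eno2 and Aldoa lie farther right in females than in males.

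Other lists moved with age and are given beside these values. Of all genes tested, 21.0% were called higher and 18.6% lower with age in females, and 13.1% and 10.2% in males. In females 29.2% of all genes were higher at E16.5 without overlap of replicates. The summed level of 12 cell cycle genes ran from 2216 to 2451 CPM in E14.5 females, 1539 to 1774 in E16.5 females, 2119 to 2267 in E14.5 males and 1875 to 2551 in E16.5 males, and 9 of 12 fell in females and 1 in males. Summed smooth muscle markers, a list of 4, ran from 295 to 320 CPM in E14.5 and 460.02 to 558 in E16.5 females, and from 594 to 875 and 1680.4 to 2814 in males, and 3 of the 4 rose in females and 4 in males. Of 12 genes of the response to tissue dissociation, immediate-early and heat shock genes, 3 rose in females, 12 lay above 0 and 7 did not overlap between the ages, with Hspa1a at 2.94, 3.86 and 4.49 CPM at E14.5 and 141, 293 and 19.2 at E16.5. Their sum ran from 9186 to 10186 CPM in E14.5 and 10814 to 18323 in E16.5 females, and from 9914 to 12859 and 4136 to 20084 in males. Summed mesenchyme markers, a list of 5, ran from 27831 to 29357.5 CPM in E14.5 and 37869.8 to 43783 in E16.5 females, and from 23802.5 to 27984 and 31745.5 to 39059.8 in males. Of these, 3 rose and 1 fell in females and 4 rose in males. Of the 6 epithelial markers 2 fell in each sex, and of the 5 endothelial ones 3 fell in females, while in males 2 rose and 1 fell. The part of any of these lists in the members' change was not tested.

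The second comparison set females against males at each age. At both ages more members were lower than higher in females. At E14.5, 1 of 34 was higher and 5 were lower in females, where 6.28% of all genes were called, 2.59% higher and 3.69% lower. The E14.5 count was 3 without female replicate 1, female replicate 2 or male replicate 3, where 3.17%, 3.61% and 3.03% of all genes were called. At E16.5, 3 were higher and 8 lower, where 27.3% were called, 13.2% higher and 14.1% lower. The median difference was -0.16 log2 at both ages, against -0.01 and 0.01 over all genes, and 27 and 23 members lay below 0. Without overlap of replicates, 4 members were higher and 16 lower at E14.5, against 12.3% and 14.9% of all genes, and 7 were higher and 11 lower at E16.5, against 19.8% and 18.5%. Same-numbered libraries of both sexes deviated together at E16.5, and with the replicate number as a block 17 members passed there, 5 higher and 12 lower, against 33.0% of all genes. The 6 added were Slc2a3 and Aldoa, higher in females, and Eno1, Ldha, Ndrg1 and P4ha1, lower.

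The lactate exporter Slc16a3 and P4ha2 were lower in females at both ages. Of all genes, 411 were lower at both, which is 62.4% of those lower at E14.5 and 16.3% of those lower at E16.5. Slc16a3 (chr11:120948480-120960868) was at 21.6, 26 and 27.7 CPM in females and 33.6, 42.5 and 39.6 in males at E14.5. The E16.5 females held 34.4, 33.5 and 33.1 CPM and the males of that age 40.2, 48.4 and 46.9. All female libraries stood below all male libraries of the same age (log2 difference -0.62, SE 0.10, adjusted p = 0.00176 and log2 difference -0.42, SE 0.10, adjusted p = 0.00523). P4ha2, with the values given above, was lower in all females at both ages (log2 difference -0.44, SE 0.062, adjusted p = 4.84e-04 and log2 difference -0.27, SE 0.061, adjusted p = 0.00400). P4ha1 was lower at E14.5 (log2 difference -0.29, SE 0.075, adjusted p = 0.0333), a call lost without any compared library other than E14.5 male replicate 1 (adjusted p up to 0.173). At E16.5 it differed by -0.20 log2 (adjusted p = 0.0579, and 0.018 with the block).

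At E14.5 the remaining calls were on both sides. Aldoa was 1.38-fold lower in females (log2 difference -0.46, SE 0.072, adjusted p = 0.00102) and Tpi1 1.18-fold lower (log2 difference -0.24, SE 0.056, adjusted p = 0.0163), the latter lost without female replicate 1 or 2 or male replicate 3 (adjusted p up to 0.111). Slc16a1 was higher in females, at 34.7, 33.6 and 34.3 CPM against 31.7, 24.4 and 25.3 (log2 difference 0.34, SE 0.091, adjusted p = 0.0351), and was also lost without any compared library other than male replicate 1 (adjusted p up to 0.176).

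At E16.5 Bnip3, Egln1, Pfkfb3, Pgk1 and Pfkl were lower in females. Egln1 was at 68.9, 68.5 and 69 CPM in females and 87.2, 97.1 and 89.7 in males (log2 difference -0.41, SE 0.058, adjusted p = 6.46e-05). Bnip3 differed by -0.47 log2 (adjusted p = 0.0092), Pfkfb3 by -0.45 (0.00749), Pgk1 by -0.35 (0.0065) and Pfkl by -0.20 (0.0117). The replicates of these 5 genes do not overlap between the sexes. On the other side, Eno2 (log2 difference 0.51, SE 0.081, adjusted p = 1.88e-04), Pfkm (log2 difference 0.29, SE 0.055, adjusted p = 8.61e-04) and Pfkfb4 (log2 difference 0.26, SE 0.077, adjusted p = 0.019), were higher in females. The Pfkfb4 call was lost without any of E16.5 female replicates 1 and 3 and male replicate 3 (adjusted p up to 0.0905). Other lists moved between the sexes too. Of all genes, 13.2% were called higher and 14.1% lower in females at E16.5, and 2.59% and 3.69% at E14.5. At E16.5, 11 of 12 cell cycle genes and 3 of 4 smooth muscle genes were lower in females, and 2 of 12 dissociation response genes were higher. At E14.5, 2 of 4 smooth muscle genes were lower. Their part was not tested.

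**Figure D3:**
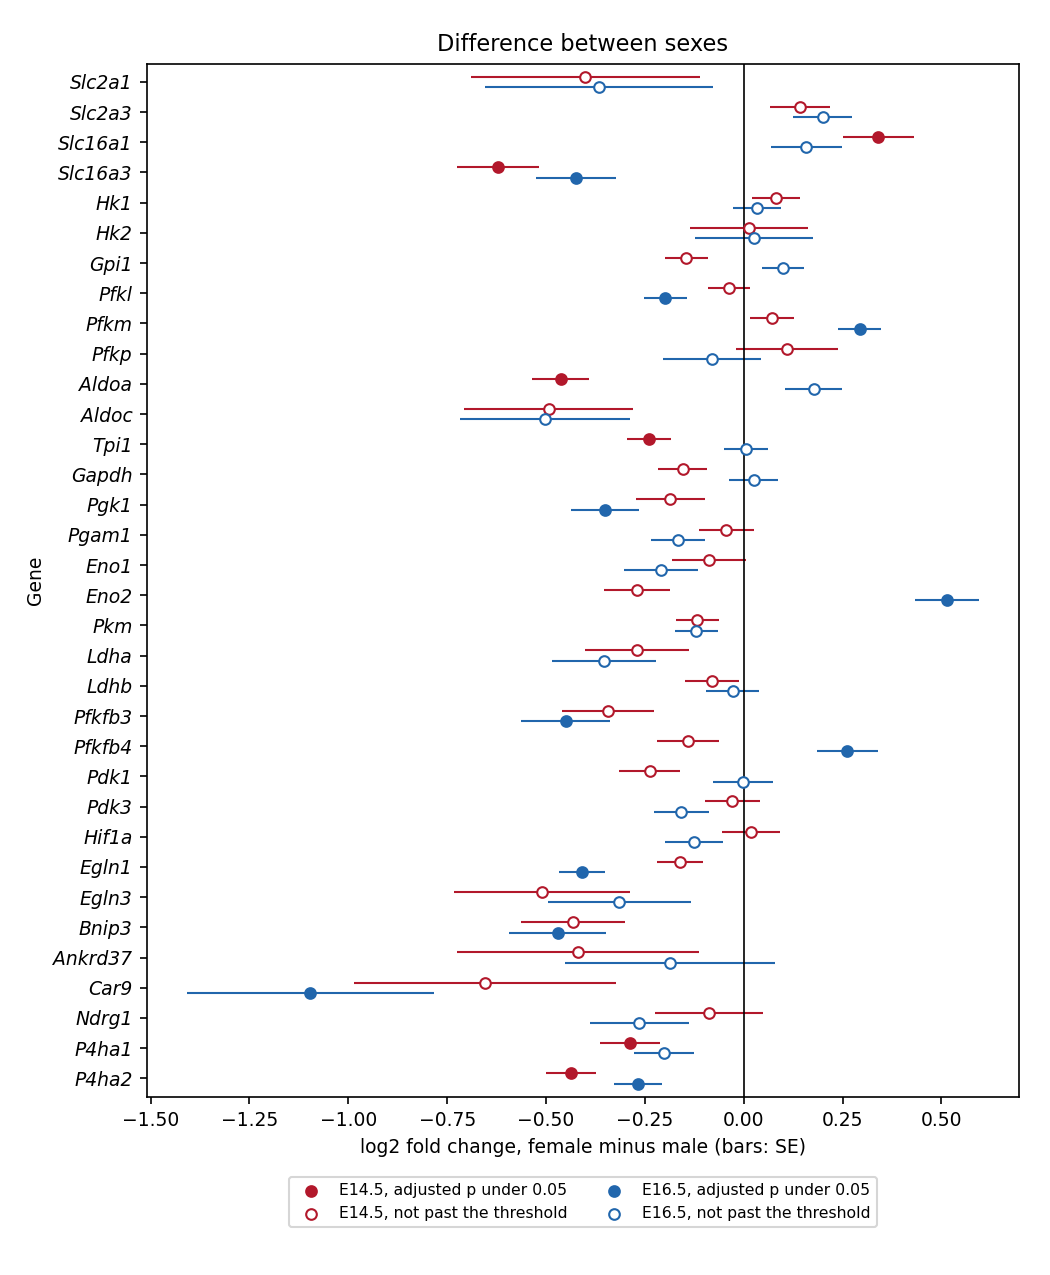
log2 difference between females and males for each member at E14.5 (red) and E16.5 (blue), bars showing the SE and filled points an adjusted p under 0.05. Most points lie left of 0, where females are lower, and Eno2 and Aldoa change side between the ages.

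The third question was whether females and males differed by another amount at the later age, tested as the sex-by-age term. They did for 3 members, Eno2, Aldoa and Pfkfb4, all toward higher values in females, where 4.66% of all genes were called in that direction and 5.36% in the other. DESeq2 called 6, with 5 in that direction and 1 in the other, where it called 12.2% of all genes. In edgeR 5 were called without E14.5 male replicate 1 (12.6% of all genes) and 7 without E16.5 male replicate 1 (14.7%). Eno2 was 1.21-fold lower in females at E14.5 (adjusted p = 0.0721) and 1.43-fold higher at E16.5, a change of 0.78 log2 (SE 0.12, adjusted p = 3.60e-04). In the 12 libraries the E16.5 females hold the 3 highest values, the E16.5 males the next 3, and the E14.5 females the 3 lowest. Aldoa was 1.38-fold lower at E14.5 and stood 0.18 log2 higher at E16.5 (adjusted p = 0.0804, and 0.0396 with the block), a change of 0.64 log2 (SE 0.10, adjusted p = 6.32e-04). Both calls held in all 16 alternatives run. Pfkfb4 (chr9:108991778-109032228) was at 18.3, 18.7 and 17.7 CPM in females and 18.4, 21.2 and 20.5 in males at E14.5. The E16.5 females held 22.2, 20.7 and 22.2 CPM and the males of that age 18.4, 18.8 and 17.2. Its change of 0.40 log2 (adjusted p = 0.0281) was lost without any 1 of 8 libraries (adjusted p up to 0.0796). With the block, Gpi1 (0.24 log2, adjusted p = 0.0495) and Tpi1 (0.25, 0.0459) passed as well. The 5 other genes that rose with age in females and were not called in males, Ankrd37, Slc16a3, Gpi1, Pfkm and Gapdh, did not pass this direct test. The term was smaller than its own SE for Egln3 (log2 difference 0.20, SE 0.29, adjusted p = 0.747) and Ndrg1 (log2 difference -0.18, SE 0.19, adjusted p = 0.625).

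**Figure D4:**
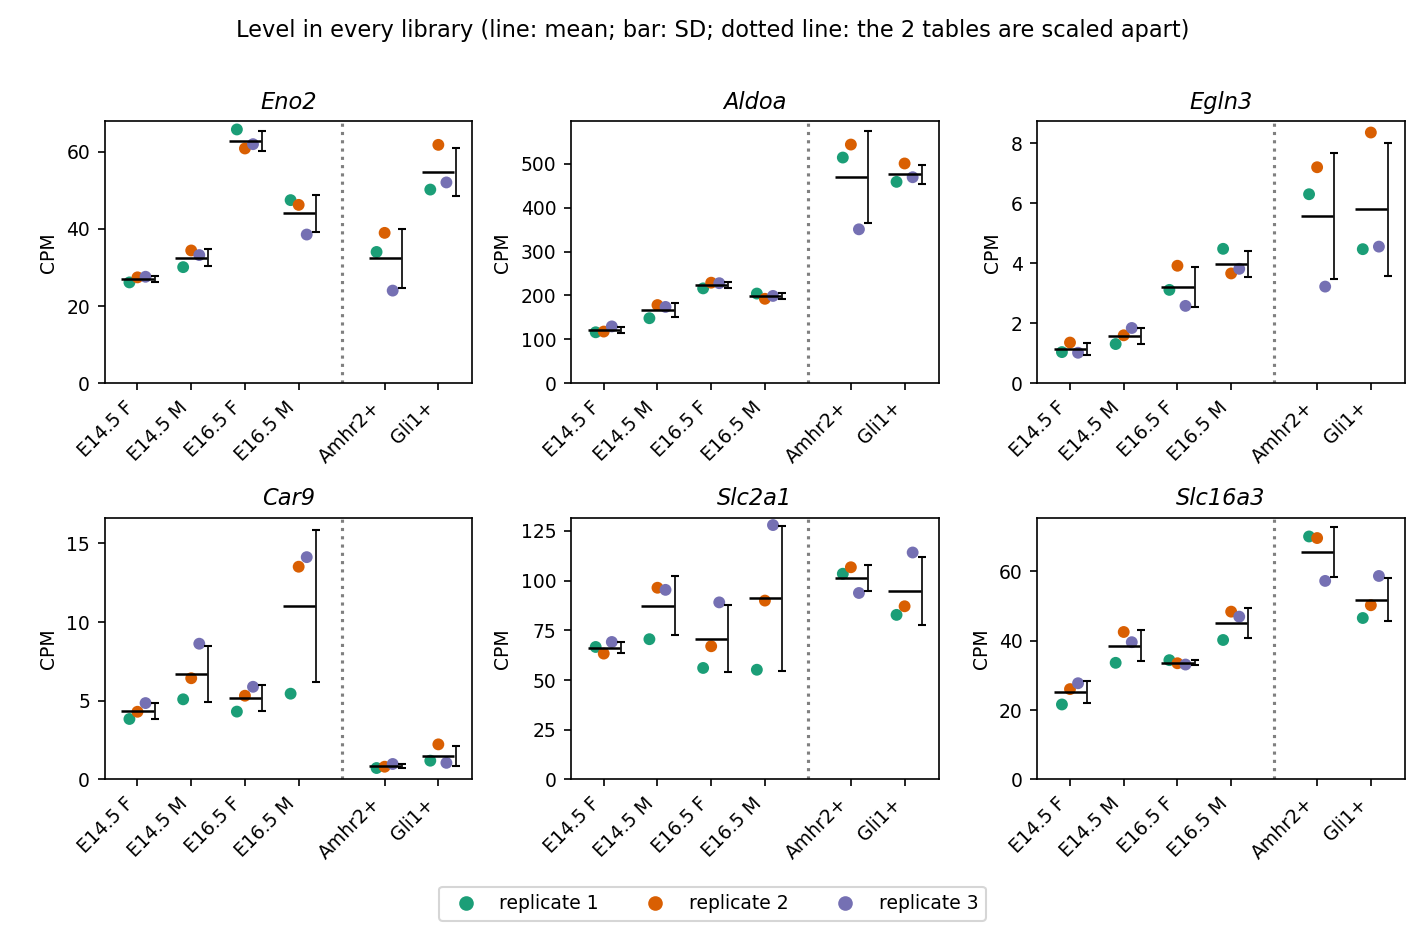
CPM of Eno2, Aldoa, Egln3, Car9, Slc2a1 and Slc16a3 in every library, with the mean (line) and SD (bar) of each group of 3, colours giving the replicate number and a dotted line parting the separately scaled tables. Eno2 is highest in E16.5 females, and Slc2a1 and Car9 spread most in E16.5 males.

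Shares of an enzyme family, computed per exon length, describe the mix of isozymes. Eno2 made up 21.8% ± 0.474 of Eno1 plus Eno2 in E14.5 females and 24.2% ± 3.54 in E14.5 males (SD, n = 3). At E16.5 it made up 40.1% ± 2.21 in females and 28.8% ± 0.524 in males, so the groups of the later age do not overlap. Of the 2 hexokinases, the share of Hk2 was 53% ± 0.557 and 54% ± 3.28 at E14.5 in females and males and 42.3% ± 3.3 and 42.1% ± 5.96 at E16.5. Per exon length Pfkm held the largest share of the phosphofructokinases in fetal cells. It made up 63.1% ± 0.386 and 61.4% ± 1.12 of the family at E14.5 and 70.8% ± 0.382 and 63.3% ± 1.41 at E16.5. The union exon length was 6675 bp for Pfkl and 3340 bp for Pfkm, and these shares depend on the lengths used. Of the lactate transporters, Slc16a3 held 37.9% ± 3.27 in E14.5 females, 54.2% ± 6.5 in E14.5 males, and at E16.5 51.8% ± 0.714 in females and 61.6% ± 0.808 in males. Pdk3 held 71.6% ± 0.774 of Pdk1 plus Pdk3 in E14.5 and 59.7% ± 0.62 in E16.5 females, and Pfkfb4 had its lowest share of Pfkfb3 plus Pfkfb4 among the fetal groups in E16.5 males, at 34.6% ± 4.93. Egln3 stayed a small part of Egln1 plus Egln3, from 2.16% ± 0.317 in E14.5 to 5.9% ± 1.19 in E16.5 females. These shares carry no test of their own.

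Some HIF targets varied widely between libraries of 1 group. Slc2a1 (chr4:119108711-119137983), the main glucose transporter of embryonic cells, was at 56.1, 67 and 89.1 CPM in E16.5 females and in the males of that age at 55.2, 89.97 and 128, a wider range in each sex than the E14.5 values, 66.6, 63.3 and 69.2 in females and 70.6, 96.4 and 95.4 in males. Car9 (chr4:43506966-43513729) was at 4.31, 5.32 and 5.89 CPM in the 3 females and 5.45, 13.51 and 14.1 in the 3 males of E16.5. Its sex difference passed (log2 difference -1.10, SE 0.31, adjusted p = 0.0227), but male replicate 1 lies within the female range, and the call was lost without any of female replicates 1 and 2 and male replicates 2 and 3 (adjusted p up to 0.0859). Replicate 1 was the lowest of the group in both sexes at E16.5 for 11 members, among them Slc2a1, Car9, Ldha, Hk2, P4ha1 and Pfkfb3, against 13.7% of all genes tested, and replicate 3 was the highest in both for 10, against 20.2%. The dissociation response genes summed to 14279.7, 10814 and 18323 CPM in females of E16.5 and 4136, 11894 and 20084 in males of that age, highest in replicate 3 of both sexes and lowest in male replicate 1 and female replicate 2. The part of that response in the members' spread was not tested. Without E16.5 male replicate 1 the sex difference at E16.5 took in Ldha (-0.49 log2, adjusted p = 0.00336), Aldoc, Hif1a and P4ha1 as well. In that fit 15 members passed, against 31.5% of all genes.

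The last comparison set Amhr2+ against Gli1+ cells of the neonatal uterus. Slc2a3, the high-affinity glucose transporter, Hk2, Slc16a1, Eno1 and Pkm were higher and Eno2 was lower, 5 and 1 of 34, where 23.9% of 16195 genes tested were called, 10.1% higher and 13.7% lower. The median over the members was 0.21 log2, against 0.00 over all genes, and 27 members lay above 0. Replicates do not overlap for 7 higher and 3 lower members, against 21.2% and 23.2% of all genes. Hk2 was at 56, 52.6 and 53.9 CPM in Amhr2+ and 37.4, 40.3 and 43.7 in Gli1+ cells (log2 difference 0.42, SE 0.074, adjusted p = 0.00486), and its call held in all 10 alternatives run. Slc2a3 was at 80.0, 87.9 and 65.8 CPM in Amhr2+ and 45.7, 60.5 and 49.7 in Gli1+ cells (log2 difference 0.59, SE 0.13, adjusted p = 0.0162), and Slc16a1 at 54.6, 50.4 and 59.1 in Amhr2+ and 37.1, 41.5 and 45 in Gli1+ cells (log2 difference 0.41, SE 0.091, adjusted p = 0.014). Both were lost without Amhr2+ replicate 1 (adjusted p = 0.0551 and 0.0538) and without Gli1+ replicate 1 (0.0553 and 0.0507). Pkm was 1.21-fold higher (log2 difference 0.27, SE 0.060, adjusted p = 0.0126), lost without Amhr2+ replicate 1 (adjusted p = 0.0729). Eno1 was 1.24-fold higher (adjusted p = 0.0467), lost without any of 5 libraries. Eno2 went the other way, at 34, 39 and 24 CPM in Amhr2+ and 50.2, 61.8 and 52 in Gli1+ cells (log2 difference -0.76, SE 0.17, adjusted p = 0.0179), and was lost without Amhr2+ replicate 1 or Gli1+ replicate 2 (adjusted p = 0.0544 and 0.0571). Eno2 made up 10.3% ± 1.07 of the 2 enolases per length in Amhr2+ and 19.6% ± 1.6 in Gli1+ cells.

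The uterine count turned on single libraries. Amhr2+ replicate 3 was the lowest of its group for 30 of 34 members, against 43.4% of all genes, and Gli1+ replicate 1 for 23, against 29.6%. Bnip3, at 44.8, 49.2 and 27.7 CPM in Amhr2+ and 26.2, 33.1 and 30.6 in Gli1+ cells, was lowest in both of these libraries. Pdk1, at 162, 173 and 116 CPM in Amhr2+ and 111, 139.6 and 104 in Gli1+ cells, was lowest in replicate 3 of each. Without Amhr2+ replicate 3, 19 members were higher and 1 lower, where 17.7% of all genes were called. The 14 added were Slc16a3, Hk1, Gpi1, Pfkl, Pfkp, Aldoc, Gapdh, Pgk1, Pgam1, Ldha, Pdk1, Egln1, Bnip3 and P4ha1, with Bnip3 at 0.65 log2 (adjusted p = 0.00512) and Pfkl at 0.46 (0.00216). Without Amhr2+ replicate 1 only Hk2 passed, where 11.8% of all genes were called. Egln3, Ndrg1 and Ankrd37, which rose with fetal age, overlapped between the uterine populations, with Egln3 at 6.3, 7.2 and 3.22 CPM in Amhr2+ and 4.47, 8.36 and 4.55 in Gli1+ cells. Car9 was at 0.726, 0.809 and 0.983 CPM in Amhr2+ and 1.19, 2.23 and 1.06 in Gli1+ cells, lower in all 3 Amhr2+ libraries without passing (-0.83 log2, adjusted p = 0.104). Dissociation response genes summed to 4179, 4180.2 and 5434 CPM in Amhr2+ and 6850.5, 1373 and 13494 in Gli1+ cells. Cell cycle genes summed to between 1772 and 2225 CPM in Amhr2+ and 1303 and 1714 in Gli1+ cells, and 4 of 12 were higher in Amhr2+ cells. Smooth muscle markers summed to between 837 and 1337 CPM and 1711 and 1773, and 2 of 4 were lower in Amhr2+ cells. Mesenchyme markers summed to between 20741 and 22568 CPM in Amhr2+ and 37835.6 and 41778 in Gli1+ cells, and 4 of 5 were lower in Amhr2+ cells. Epithelial markers summed to between 49.2 and 49.8 CPM and 17.9 and 28.8, with 3 of 5 tested higher in Amhr2+ cells, and markers of gonad somatic cells to between 72.5 and 120.4 CPM and 62.7 and 65.8, with 1 of 4 tested higher. Of the endothelial markers 2 of 5 were lower in Amhr2+ cells, and of the erythroid ones both of the 2 tested. Of all genes tested, 10.1% were called higher and 13.7% lower in Amhr2+ cells. The part of these lists in the members' difference was not tested.

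**Figure D5:**
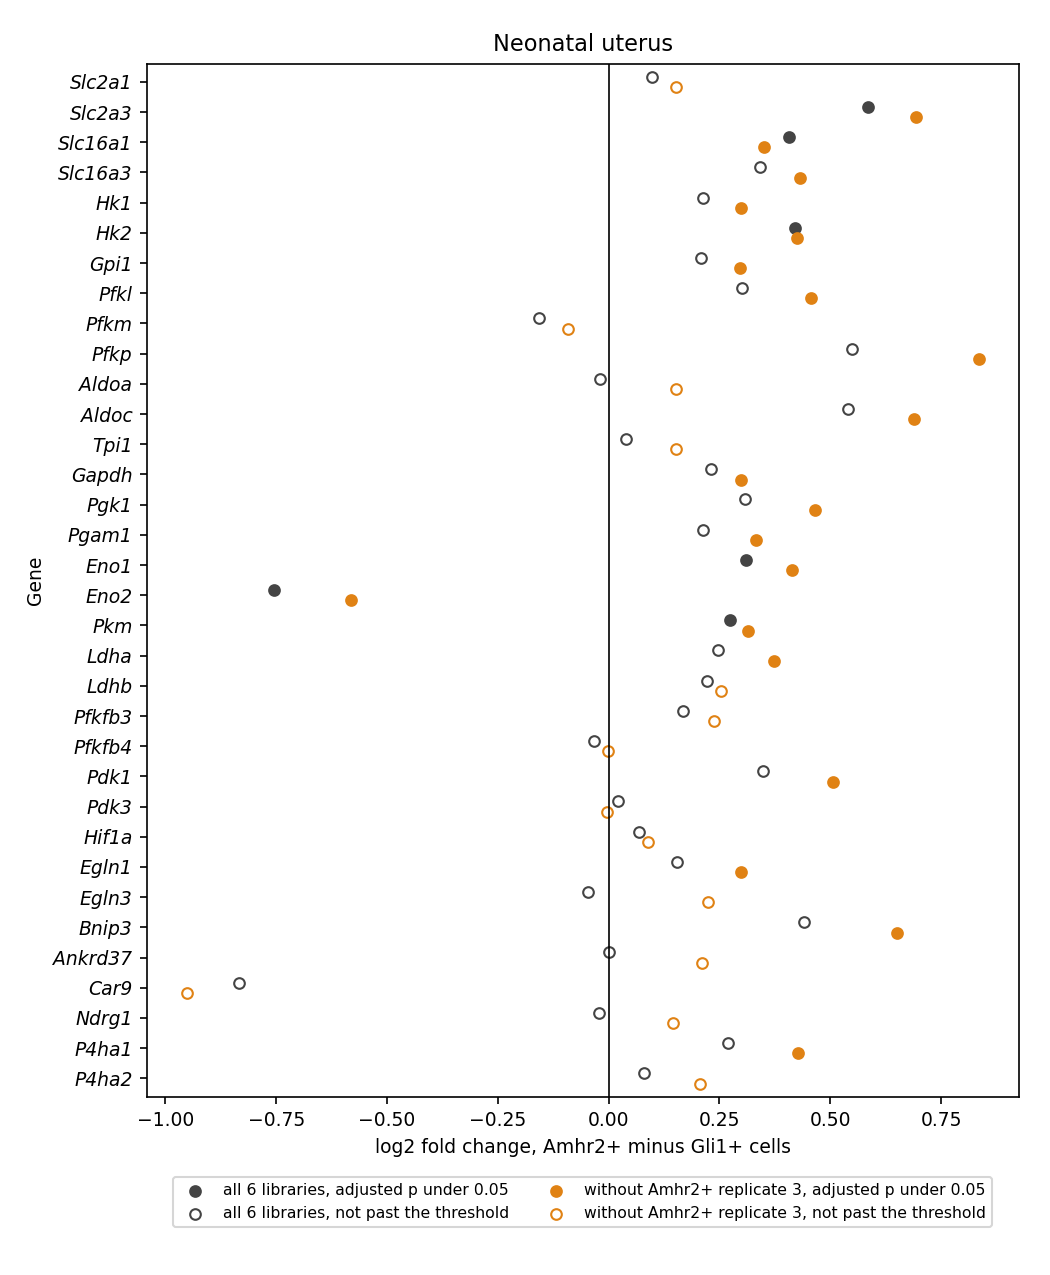
log2 difference between Amhr2+ and Gli1+ cells for each member with all 6 libraries and without Amhr2+ replicate 3, filled points showing an adjusted p under 0.05. Most points move right without that library, and Eno2 lies left of 0 in both fits.

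The rest of the pathway was read from lists of other genes. Of all genes tested, 21.0% were called higher and 18.6% lower with age in females, and 13.1% and 10.2% in males. Between the sexes 2.59% were called higher and 3.69% lower in females at E14.5, and 13.2% and 14.1% at E16.5. In the uterus 10.1% were called higher and 13.7% lower in Amhr2+ cells. The list counts below stand beside these shares. Of 35 other hypoxia response genes tested, 17 rose and 5 fell with age in females and 13 rose and 3 fell in males. Stc2, a secreted stanniocalcin, rose by 2.38 and 2.32 log2 (adjusted p = 2.57e-09 and 3.67e-09), and Lox, the collagen cross-linking oxidase, by 1.73 and 1.77 (2.41e-09 and 3.58e-09). Vegfa, the angiogenic factor, fell in males by 0.76 on the log2 scale (adjusted p = 9.08e-06), from 221 ± 23.8 to 131 ± 9.93 CPM, so the targets did not all move one way. Between the sexes, 3 of the 35 were higher and 5 lower in females at E14.5, and 11 were higher and 9 lower at E16.5. In the uterus 6 were higher and 6 lower in Amhr2+ cells, with Ak4, a mitochondrial adenylate kinase, at 1.16 log2 (adjusted p = 2.40e-04) and Lox at -1.17 (0.00400).

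Of 8 other HIF subunits and oxygen sensing genes, 2 rose and 2 fell in each sex with age. Hif3a, an alpha subunit that can oppose the others, rose by 0.53 log2 in females and 0.25 in males (adjusted p = 5.85e-05 and 0.0268), and Arnt2, a partner subunit, fell (-0.61 and -0.77 log2, adjusted p = 6.40e-06 and 7.90e-07). Of 10 further glycolytic isozymes, 4 rose and 1 fell in females and 2 rose in males, with the insulin-responsive glucose transporter Slc2a4 at 0.51 log2 in males (adjusted p = 0.00511) and the muscle enolase Eno3 at 0.36 in females (0.00973).

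Of 16 citric acid cycle genes, 3 rose and 1 fell with age in females and 1 rose and 1 fell in males. Of all genes, 39.6% were called with age in females and 23.3% in males. The named changes lay within -0.24 (Fh1, fumarate hydratase) and 0.29 log2 (Idh3g, an isocitrate dehydrogenase subunit) in females. Of 11 genes of pyruvate entry, 2 rose and 1 fell in females, with the kinase Pdk2 at 0.40 log2 (adjusted p = 6.14e-04), and Pdk2 was also higher in females than in males at E16.5 (0.46 log2, adjusted p = 2.23e-04). Of 7 pentose phosphate genes, 2 rose in females, the lactonase Pgls (0.53 log2, adjusted p = 5.45e-04) and the dehydrogenase G6pdx (0.29, 0.00235). Among the 4 gluconeogenic genes, pyruvate carboxylase Pcx was 1.91-fold higher in uterine Amhr2+ cells (0.93 log2, adjusted p = 0.00294) and fell with age in both fetal sexes (-0.38 and -0.23, 6.64e-04 and 0.0302). Pck2, the mitochondrial carboxykinase, was higher in females at both ages (0.50 and 0.52 log2, adjusted p = 0.0300 and 0.00644).

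Several members carry a counting limit. In the annotation 16 of the 34 overlap another gene, among them Aldoa, Tpi1, Hk1, Hk2, Pkm, Hif1a, Bnip3, Car9 and Ndrg1, and whether counting used strand is not given in the sources used here. Glycolytic enzymes such as Gapdh, Pgk1, Eno1 and Ldha have processed pseudogenes, and how reads shared with these were counted is also not given.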

How the data were processed

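RNA-seq was read from 12 fetal and 6 uterine libraries, grouped by the sample titles. The authors deposited 2 tables of raw read counts per gene, and 1 list of ATAC-seq peak positions for all 8 ATAC samples. STAR 2.5, featureCounts (Subread 1.5.0-p1), Bowtie 1.2, SAMtools 1.3.1, Picard, bedtools 2.24.0, MACS2 2.1.1 and the build mm10 are named, with no order, per the submitters' processing notes. Libraries were polyA, from a non-stranded kit for fetal and a stranded kit for uterine cells, per the labels' protocols. Annotation version and use of strand are not given in the sources used here.

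Each table was fitted by itself in edgeR 4.0.16 (R 4.3.3) by its quasi-likelihood test, with TMM scaling, robust estimation and filterByExpr at a minimum count of 10, which kept 17858 fetal and 16195 uterine genes. The fetal model had 4 group means over 12 libraries. Benjamini-Hochberg adjustment was made over all genes tested, with a threshold of 0.05. The SE is the size of the log2 difference over the root of the F statistic. CPM uses TMM-scaled totals, and RPKM also the union exon length of GENCODE vM21 on GRCm38. DESeq2 1.42.0, no TMM scaling, no low-count filter, only the libraries compared, a replicate block and leaving out each library were the alternatives. The fit was tested on simulated data. The SE and SD cover the spread between these libraries, and the floor of 3 counts covers counting error only.

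All 34 members are named. Of the other lists, up to 4 genes per comparison were named, those with the largest change among genes past the threshold with at least 10 CPM in the higher group. The members and lists were chosen with earlier results of these data known.

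Same-numbered libraries of the sexes at E16.5 correlated in their deviations from the group means at 0.28, 0.11 and 0.40, above the limit of 0.1 in every pair. Female replicate 2 and male replicate 1, which differ in number, also passed the limit, at 0.108. The block was therefore given as an alternative at E16.5, and the calls reported come from the fit without it. No label says what a replicate number stands for.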

Additional observations from a re-analysis of the deposited data

Results flagged for a closer look

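For the 7 genes named here the difference between females and males changed from E14.5 to E16.5, by the sex-by-age term of edgeR's quasi-likelihood test with adjustment over all genes tested. Members were Eno2 (0.78 log2, adjusted p = 3.60e-04), Aldoa (0.64, 6.32e-04) and Pfkfb4 (0.40, 0.0281), with the values given above.

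The other 4 are hypoxia response genes outside the set, those with the largest change at 10 CPM or more among the 7 of 35 called. Of these 7, 6 went toward higher and 1 toward lower values in females, against 4.66% and 5.36% of all genes. Vldlr, a lipoprotein receptor, was at 160.1, 160.1 and 173 CPM in E14.5 females and 93.6, 82.2 and 96.4 in E14.5 males, then at 76.1, 72 and 63.3 in the females and 165, 187 and 157 in the males of E16.5 (-2.13 log2, adjusted p = 3.91e-08). The order of the sexes turned over, without overlap at either age. Car12, a membrane carbonic anhydrase like Car9, was at 5.28, 7.21 and 4.92 CPM in females and 6.82, 6.41 and 6.95 in males at E14.5, then at 23.7, 24 and 24.3 in the females and 10.3, 9.72 and 7.56 in the males of E16.5 (1.61 log2, adjusted p = 5.80e-05). Ddit4, a stress-induced inhibitor of mTOR signalling, was at 12.3, 13.3 and 17.8 CPM in females and 11.3, 17.3 and 18.1 in males at E14.5, then at 54.3, 56.5 and 38.6 in the females and 27.8, 27.4 and 23.1 in the males of E16.5 (1.06 log2, adjusted p = 0.0341). Mif, a cytokine, was at 62.4, 64.3 and 67.5 CPM in females and 64.1, 91 and 80.8 in males at E14.5, then at 84.9, 89.8 and 82.5 in the females and 74.7, 63 and 73.1 in the males of E16.5 (0.57 log2, adjusted p = 0.0185). The calls of Vldlr and Car12 held in all 16 alternatives run, that of Mif in 13 and that of Ddit4 in 7.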

How the results depend on the processing

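No call among the members turned direction under the alternatives run. The male libraries fitted alone with the block lost the age calls of Hk1, Egln1, Aldoa, Pgam1, Pdk1, P4ha1 and P4ha2 (adjusted p up to 0.198). That block pairs libraries of different ages by number. Same-numbered male libraries of E16.5 and E14.5 correlated at 0.040, -0.081 and -0.004, none above the limit of 0.1. Without a low-count filter the age calls of Pfkl and Pdk3 in females and of Pgam1 in males were lost. That setting also lost the E16.5 sex calls of Pfkfb4 and Car9, the Pfkfb4 sex-by-age call and the uterine Eno2 call (adjusted p up to 0.0782). With the replicate number as a block, the members called were 10 in place of 6 for sex at E14.5, 17 in place of 11 for sex at E16.5, 7 in place of 13 for age in males, 5 in place of 3 for the sex-by-age term and 9 in place of 6 in the uterus. Same-numbered libraries correlated at 0.07, 0.05 and 0.05 at E14.5, and at 0.00, 0.22 and 0.24 in the uterus, so not every pair there passed the limit of 0.1. Fitting only the libraries compared gave 11 for sex at E14.5 (8.49% of all genes) and 9 for age in males (16.3%). DESeq2 gave 6 for the sex-by-age term (12.2% of all genes) and 9 in the uterus (26.5%). Scaling by library size alone gave 11 in the uterus (27.7% of all genes) and 14 for age in males (25.1%), 11 higher and 3 lower. Without a low-count filter the sex-by-age term had 2 (6.01% of all genes). Leaving out each library gave 3 to 8 for sex at E14.5, 9 to 15 for sex at E16.5, 17 to 20 for age in females (21 with all), 11 to 17 for age in males, 2 to 7 for the sex-by-age term (5 without E14.5 male replicate 1 and 7 without E16.5 male replicate 1) and 1 to 20 in the uterus, 1 without Amhr2+ replicate 1 and 20 without Amhr2+ replicate 3. In these fits the share of all genes called moved too, from 3.03% to 9.20% for sex at E14.5 and 19.8% to 31.5% at E16.5. For age it ran from 28.8% to 35.4% in females and from 18.4% to 21.5% in males. For the sex-by-age term it ran from 7.32% to 14.7%, and in the uterus from 11.8% to 21.2%. The cause of these changes was not tested. Of the members' fetal values depth limits Egln3 and Ankrd37 most, at 1.13 and 1.19 CPM in E14.5 females, where 3 counts correspond to 0.119 CPM or less.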

Other observations

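Higd1a, a mitochondrial gene induced by low oxygen, was lower in females at E16.5, at 19.3, 18.3 and 22.4 CPM against 30.0, 35 and 33.5 in males (log2 difference -0.72, SE 0.088, adjusted p = 1.54e-05). Pgm2, a phosphoglucomutase, was lower in females at E14.5, at 30.7, 31.3 and 29.3 CPM against 48, 45.3 and 45 (log2 difference -0.60, SE 0.069, adjusted p = 6.06e-05). Vegfa was higher in females at that age, at 300.1, 313 and 312 CPM against 198, 246 and 219 (log2 difference 0.48, SE 0.086, adjusted p = 0.00309). In the uterus Nrn1, a neuritin gene, and Rora, a nuclear receptor, were higher in Amhr2+ cells (0.90 and 0.71 log2, adjusted p = 0.00706 and 8.26e-04), and Hif3a and the hydroxylase Egln2 were lower (-0.46 and -0.27 log2, adjusted p = 0.00331 and 0.0129). Replicates of these 7 genes do not overlap in the comparisons given.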
